A study of Rattus norvegicus with 24 samples.

Results

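The comparison described here is between lungs of rats that inhaled 1000 ppm and rats that inhaled 600 ppm of hexanal, on the arrays of both doses that shared a slide. An Agilent slide of this design carries 4 arrays, and 2 of the 6 slides held 2 arrays of each dose, which gave 8 of the 24 arrays of the series. Rats 7 and 8 (600 ppm) and rats 11 and 12 (1000 ppm) were males on the one slide, and rats 27 and 28 (600 ppm) and rats 31 and 32 (1000 ppm) were females on the other. Slide and sex therefore cannot be told apart. On the other 4 slides a single 600 ppm rat (6 or 26) lay beside 3 control rats, or a single 1000 ppm rat (13 or 33) beside 3 rats at 1500 ppm.

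Hexanal is an aldehyde given off by plant oils, wood and building materials and is found in indoor air. Fischer-344 rats of both sexes, an inbred strain, were exposed from the age of 7 to 8 weeks for 4 h per day on 5 days per week, and the control group breathed filtered air. Doses are given here in ppm, as in the sample titles. Nose-only exposure lasted 4 weeks by the methods and 5 weeks by the treatment protocol of the labels, which also has mg per cubic meter as the unit of the doses. Total RNA of the whole lung was labelled with Cy3 and hybridized to 1 array per rat, and nothing more than the lung is named as the tissue taken.

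The conducting airways of the lung are lined by ciliated cells, whose beating cilia carry mucus and trapped particles upwards, and by club cells, which secrete protective proteins and metabolize inhaled chemicals. A motile cilium is built around microtubule doublets, on which dynein arms produce the stroke and radial spokes and a central apparatus set its form. Aldehydes are cleared in these cells mainly by aldehyde dehydrogenases and by coupling to glutathione.

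Each value below is the log2 signal of a probe minus the 75th percentile of its own array, called the log2 level here, and probe levels of different genes are not compared with each other. In limma, with the slide as a block, 21388 genes or unnamed probes were tested, 12538 of them with a gene symbol. A gene was called where it differed 1.5-fold or more with an unadjusted p under 0.05, a rule taken from the study. By it 204 were higher at 1000 ppm (0.954% of those tested) and 45 were lower (0.21%). No gene had a Benjamini-Hochberg adjusted p under 0.05 in limma, where the lowest was 0.291 and 1412 genes had an unadjusted p under 0.05, 4.8% of all being higher and 1.8% lower. The methods' t-test gave 0 adjusted and 643 unadjusted. With 2 rats of a dose on a slide, the exact permutation test within slides has 36 assignments and a smallest two-sided p of 0.0556, so that it could not fall below 0.05 for any gene. Nothing in the labels says that the rats of a group were housed or processed apart. The methods give cages of at most 2 rats during exposure, so rats of a dose may have shared a cage or an exposure run. The limma p-values measure the spread between these 8 rats within the slides, and not that between cages or exposure runs.

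Both slides placed the 600 ppm rats at array positions 4 and 3 and the 1000 ppm rats at positions 2 and 1, so dose and position on the slide cannot be told apart in the 8 arrays. The share of probes well above background was between 70.7% and 79.8% on the 600 ppm arrays, lowest for rat 7, and between 77.4% and 81.3% on the 1000 ppm arrays. Of the 204 higher genes, 121 were well above background on at least 3 of 4 arrays at 1000 ppm only, and such genes had passed the filter through the dose at which they were high. Among the 19992 genes well above background on at least 3 arrays of both doses, 83 were higher and 38 lower. With normexp background correction the counts were 12 higher and 66 lower, so the surplus of higher genes turned into a surplus of lower ones, and with quantile normalization they were 135 and 60. The part of position and of the background level in these counts was not tested beyond these values.

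**Figure D1:**
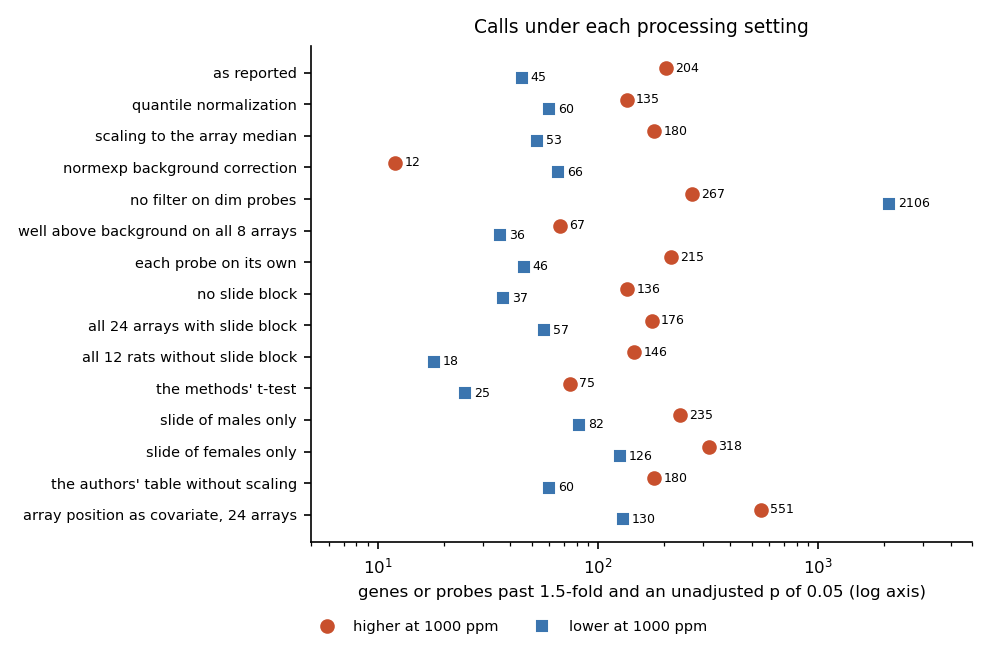
Number of genes or probes past 1.5-fold and an unadjusted p of 0.05 (x axis, log scale) under each processing setting (y axis), for those higher (circles) and lower (squares) at 1000 ppm. The values reported here are 204 and 45. Normexp background correction gave 12 and 66, and the fit without a filter on dim probes gave 267 and 2106.

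The defining markers of the lung were well above background on all 8 arrays. They were Sftpc and Sftpb of type II cells, Ager, Aqp5 and Pdpn of type I cells, Scgb1a1 and Scgb3a2 of club cells, Foxj1 and Tppp3 of ciliated cells, and Pecam1, Cdh5 and Cldn5 of the endothelium. The log2 level of Sftpc, the surfactant protein C of type II cells, lay between 7.64 and 7.96. Heart muscle genes were also measured, although the labels name only lung, and their level differed widely between rats of the same dose. The log2 level of Myh6, the alpha heavy chain of heart myosin, ranged from -1.40 to 4.06 in the 600 ppm rats and from -0.39 to 4.69 in the 1000 ppm rats. Like Myh6, the heart muscle genes Myl7 and Tnnt2 were well above background on all 8 arrays, whereas Nppa was on 1 array.

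The dose difference of the males and that of the females were nearly unrelated across genes. Over 21327 genes with a value on all 8 arrays, Pearson's r between the difference on the male slide and that on the female slide was 0.125, Spearman's rho was 0.0605, and 49.4% of genes had the same sign on both. Over the 19961 of them that were well above background at both doses, r was 0.0484 and 48.7% had the same sign. These are descriptions across genes, which are not independent replicates. The difference of the dose difference between the slides passed the adjusted threshold for 0 genes in limma, with 839 genes (3.92%) at an unadjusted p under 0.05. On each slide separately, all 4 rats of the slide were ordered by dose without overlap in the same direction on both for 984 genes that were higher at 1000 ppm (4.6%) and 572 that were lower (2.67%).

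**Figure D2:**
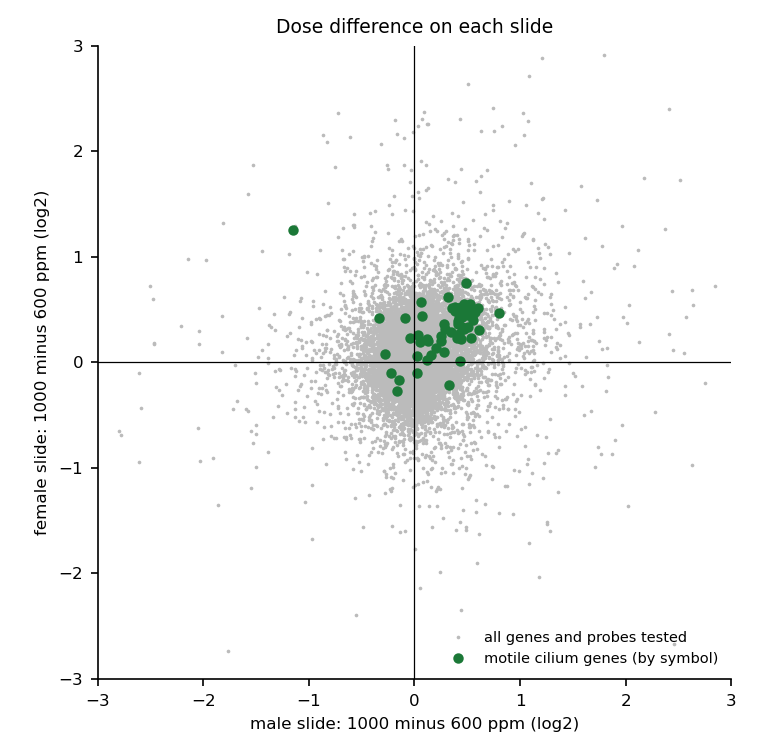
Difference in log2 level, 1000 minus 600 ppm, on the slide of males (x axis) against that on the slide of females (y axis), 1 point per gene or probe, with motile cilium genes taken by their symbols in green; 13 points lie outside the axes. The cloud of all genes shows little relation between the slides, and most cilium genes lie above 0 on both axes.

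Most genes of the ciliated cell list were modestly higher at 1000 ppm on both slides. Of the ciliated cell list, 7 of 12 genes were tested and 6 of the 7 were higher with an unadjusted p under 0.05, against 4.8% of all genes; none reached 1.5-fold. The median difference of the 7 genes was 0.42, with 0.45 on the male slide and 0.39 on the female slide, beside a median of 0.01 over all genes tested. The 6 genes were Dnai1, Dynlrb2, Foxj1, Rsph1, Sntn and Tekt1, and in each the 1000 ppm rats were above the 600 ppm rats on both slides. Tppp3, a microtubule-binding protein of ciliated cells that other cells also make, had a difference of 0.06 with a standard error of 0.08. Because RNA was taken from whole tissue, more ciliated cells and more RNA per ciliated cell cannot be told apart.

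Values are given in the order of rats 7, 8, 27 and 28 at 600 ppm and of rats 11, 12, 31 and 32 at 1000 ppm. The log2 level of Dnai1, an intermediate chain of the outer dynein arm, was -2.24, -2.14, -1.67 and -1.57 at 600 ppm against -1.70, -1.47, -0.95 and -1.26 at 1000 ppm. On the male slide and on the female slide the doses did not overlap, but across the slides they did, since male rat 11 at 1000 ppm lay below both females at 600 ppm. The difference was 0.56 with a standard error of 0.09, an adjusted p of 0.291 in limma and an exact permutation p of 0.0556.

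The log2 level of Foxj1, the transcription factor that switches on the genes of motile cilia, was 0.62, 0.73, 1.22 and 0.94 at 600 ppm against 1.00, 0.86, 1.37 and 1.40 at 1000 ppm. Its difference, 0.28 with a standard error of 0.08 (adjusted p of 0.467 in limma) was smaller than that of Dnai1, and a test between the genes was not run. Tekt1, a tektin filament protein inside the microtubule doublets, had log2 levels of -2.67, -2.79, -1.97 and -2.28 at 600 ppm against -2.16, -2.24, -1.42 and -1.71 at 1000 ppm, a difference of 0.54 with a standard error of 0.10. Dynlrb2, a dynein light chain of the roadblock type, had log2 levels of 1.84, 1.98, 2.62 and 2.53 at 600 ppm against 2.41, 2.31, 3.09 and 2.93 at 1000 ppm. In each of these genes the females were above the males at the same dose, and the dose differences on the male and female slides were 0.26 and 0.30 for Foxj1, 0.53 and 0.56 for Tekt1, and 0.45 and 0.44 for Dynlrb2.

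The wider set of cilium genes was taken by gene symbol after the values of the ciliated cell list had been seen, so its counts are a description. Of 57 tested genes of dynein arms, arm assembly, radial spokes, tektins, the Cfap family and the central apparatus, 52 were higher at 1000 ppm and 38 had an unadjusted p under 0.05 in that direction, and 0 in the other. The median difference was 0.33, with 0.38 on the male slide and 0.33 on the female slide. Only Spag16 and Cfap68 passed 1.5-fold, and Cfap68 was a dim probe with a log2 level of -7.56 at 600 ppm against -6.93 at 1000 ppm.

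Among the motor parts, 8 of 10 intermediate and light chain or docking genes had an unadjusted p under 0.05, and the only axonemal dynein heavy chain on the array, Dnah1, differed by 0.49 with a standard error of 0.10. Among the assembly factors, which build the arms in the cytoplasm before they enter the cilium, 4 of 10 did, and Dnaaf1 and Zmynd10 differed by 0.48 and 0.44 with standard errors of 0.09 and 0.07. Dnaaf2, a co-chaperone that many cells make, had a difference of -0.15 with a standard error of 0.07. Radial spoke genes gave 4 of 5, tektins 2 of 5, Cfap genes 16 of 23 and the Spag genes of the central apparatus and axoneme 3 of 3.

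Genes for transport into cilia are also used by cells with a single primary cilium. Of 15 intraflagellar transport genes, 14 were higher and 9 had an unadjusted p under 0.05, with a median difference of 0.19. That count of 9 was 2 without rat 28 or rat 31, 3 without rat 7, 4 without rat 8, 11 or 27, 4 with scaling to the array median, 3 with normexp, 4 with the spread of all 24 arrays and 0 in the methods' t-test. With normexp the median was 0.09. Of 6 Bardet-Biedl genes, 5 were higher and 1 had an unadjusted p under 0.05, with a median of 0.08. Tubb4b, the beta-tubulin used most in axonemes, had log2 levels of 6.10, 5.93, 5.93 and 5.89 at 600 ppm against 6.31, 6.55, 6.57 and 6.46 at 1000 ppm, a difference of 0.51 with a standard error of 0.09 and an adjusted p of 0.291 in limma. The 4 rats of each dose did not overlap for Tubb4b even across the slides. Of the 14 tubulin genes tested, 2 had an unadjusted p under 0.05, both higher, and the median was 0.08.

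**Figure D3:**
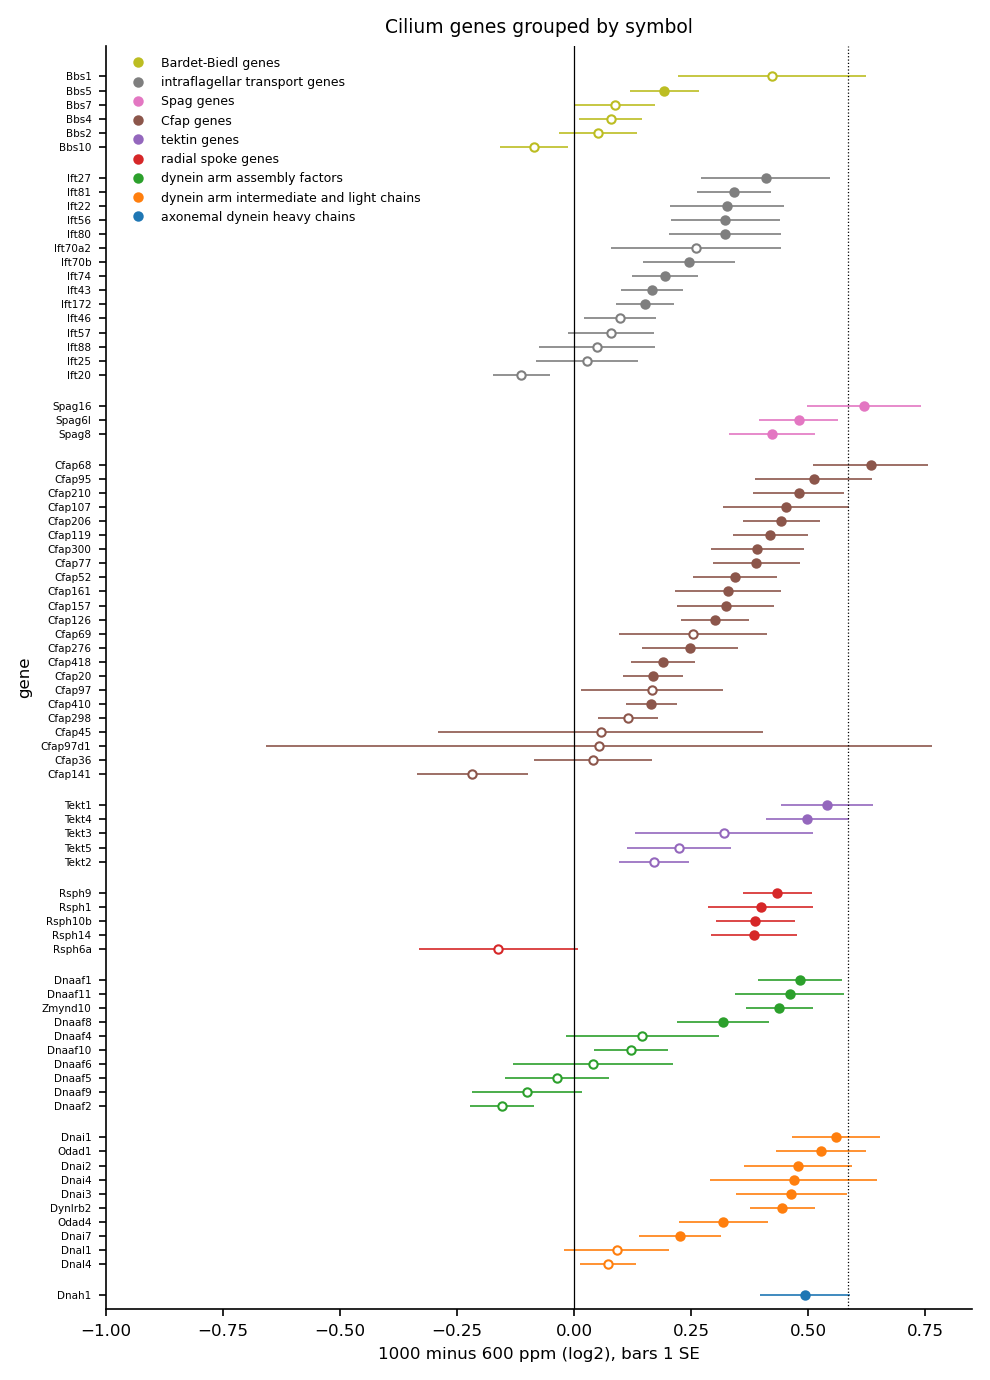
Difference in log2 level, 1000 minus 600 ppm (x axis), for each cilium gene tested, grouped by symbol (y axis); bars are 1 standard error, filled points have an unadjusted p under 0.05 and the dotted line marks 1.5-fold. Filled points lie to the right of 0 in every family shown, with medians of 0.19 for Ift genes, 0.08 for Bbs genes and 0.45 for dynein arm intermediate and light chains.

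How far the cilium genes stood apart depended on the spread they were set against. The mean log2 level of the 57 genes, with the mean of the 8 arrays at 0, was -0.43 and -0.33 in the male and 0.18 and -0.01 in the female 600 ppm rats, and -0.10 and -0.11 in the male and 0.44 and 0.37 in the female 1000 ppm rats. On other slides it was -0.04 and -0.47 in rats 6 and 26 at 600 ppm against -0.20 and 0.43 in rats 13 and 33 at 1000 ppm. The 6 control rats ranged from -0.54 to 0.25 and the 6 rats at 1500 ppm from -0.52 to 0.40, so that both doses lay within the range of the control rats except for the female 1000 ppm rats. When the spread was taken from all 24 arrays with the slide as a block, the median difference was again 0.33 but 7 of the 57 genes, and 0 of the 7 of the ciliated cell list, had an unadjusted p under 0.05. Without the slide block 3 did, and in the methods' t-test 1 did. With normexp background correction 25 of 57 did, with a median of 0.23. Leaving out any 1 of the 8 rats left 31 to 37 of the 57, with medians from 0.31 to 0.40. With array position as a covariate over all 24 arrays, the median was 0.61 and 27 of 57 had an unadjusted p under 0.05. This alternative was added after the data were seen. Because position went with dose in the 8 arrays, the position effect of that fit came from the other slides. Those slides held mostly control and 1500 ppm rats. The value of 0.61 therefore does not show the cilium difference with position removed, and the part of position in that difference was not tested.

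Some genes of the club and secretory cell list and of the smooth muscle list were higher too. Among 8 tested club and secretory cell genes, Scgb3a2, Scgb1a1 and Cyp2f4 were higher with an unadjusted p under 0.05, by 0.33, 0.23 and 0.41 with standard errors of 0.07, 0.07 and 0.16, and the median was 0.28, with 0.18 without rat 7, 0.16 without rat 12 and 0.45 without rat 32. Bpifa1, a secreted airway defence protein of the same list, had a difference of -1.36 with a standard error of 1.90, and the mean level of the list overlapped between the doses on both slides. All 9 smooth muscle genes tested were higher and 5 had an unadjusted p under 0.05, namely Acta2, Actg2, Cnn1, Des and Tagln, with a median of 0.37 over the list. The count of 5 was 2 without rat 12, 27, 28, 31 or 32, 3 without rat 7, 2 in the methods' t-test and 0 with array position as a covariate. The fit with array position has the same limit here as for the cilium genes. On the male slide alone 6 of the 9 were higher, 0 of them with an unadjusted p under 0.05, and the median was 0.10, whereas on the female slide it was 0.59. Cnn1, the calponin of smooth muscle, had log2 levels of -2.68, -2.57, -3.05 and -2.48 at 600 ppm against -2.45, -2.16, -1.99 and -1.95 at 1000 ppm. None of the 9 type I, 9 type II and 11 endothelial cell genes tested had an unadjusted p under 0.05, and their medians were -0.01, -0.04 and -0.07.

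All 14 heart muscle genes tested were higher on average and none had an unadjusted p under 0.05. Their median was 0.53, and leaving out 1 rat moved it from -0.13 to 1.28. The mean log2 level of the list was -0.83, 0.23, -1.94 and 1.42 in the 600 ppm rats and -0.11, 0.88, 1.72 and -1.37 in the 1000 ppm rats. Rats 27 and 28, both females at 600 ppm, differed by more in heart muscle genes than the doses did. The part of airway wall and heart muscle RNA in the lung samples, its source and its bearing on the cilium levels were not tested.

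**Figure D4:**
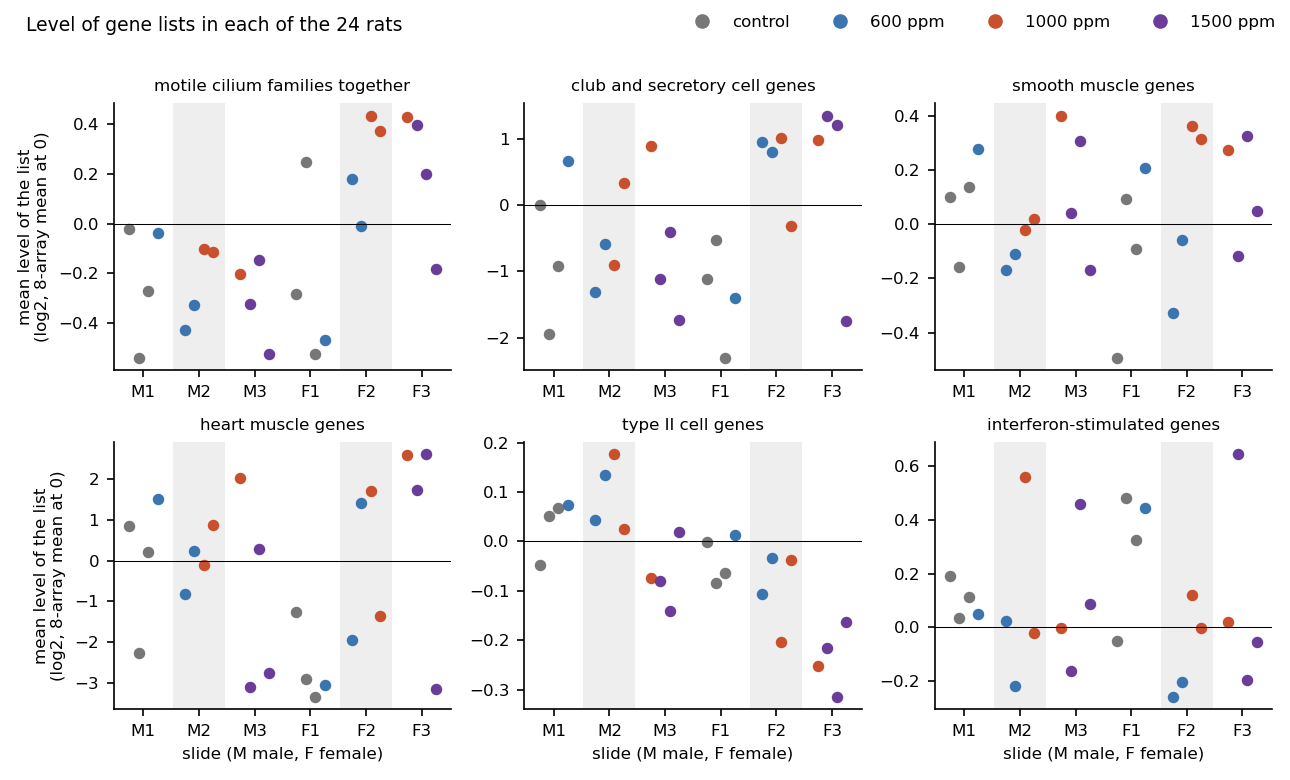
Mean log2 level of 6 gene lists (y axis, mean of the 8 arrays at 0) in each of the 24 rats, by slide (x axis; M1 to M3 held males, F1 to F3 females), with the shaded slides M2 and F2 holding 600 and 1000 ppm together. For the motile cilium genes the 1000 ppm rats lie above the 600 ppm rats on both shaded slides, and the control rats range from -0.54 to 0.25.

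The promoters of some cilium genes are shown because these genes moved together and because RFX factors, which act with Foxj1 on cilium genes, bind to the X-box, an inverted repeat of which the letters GTTGCC are one arm. The motif was chosen after the values were seen. In promoters of 300 bases from RefSeq (build GRCr8, 250 before and 50 after the start), GTTGCC or its reverse complement was found in 13 of 45 motile cilium genes (28.9%), 5 of 11 intraflagellar transport genes (45.5%), 12.8% of the tested genes with a promoter in the table and 12.2% of all promoters. A match is a description of letters and not a site. Printed below are the 5 genes of the motile cilium families or the ciliated cell list that were higher with an unadjusted p under 0.05 and had a match within 150 bases before the start, of which Sntn is in the ciliated cell list only. They are given 5' to 3' on the strand of the gene, with these letters in capitals, as GTTGCC on that strand or as GGCAAC where it lies on the other strand.
Cfap161, chr1:147177822-147177971, strand minus: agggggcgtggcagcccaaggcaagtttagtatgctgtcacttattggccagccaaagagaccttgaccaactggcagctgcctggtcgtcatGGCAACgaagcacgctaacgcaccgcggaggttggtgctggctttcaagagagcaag
Dnai2, chr10:100258872-100259021, strand plus: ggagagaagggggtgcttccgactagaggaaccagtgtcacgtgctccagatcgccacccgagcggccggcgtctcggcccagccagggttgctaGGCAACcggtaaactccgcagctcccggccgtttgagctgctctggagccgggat
Sntn, chr15:13956091-13956240, strand minus: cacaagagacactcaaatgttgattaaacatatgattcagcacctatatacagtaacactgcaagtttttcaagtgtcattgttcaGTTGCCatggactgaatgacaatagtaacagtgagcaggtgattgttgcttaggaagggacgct
Spag6l, chr11:97677690-97677839, strand plus: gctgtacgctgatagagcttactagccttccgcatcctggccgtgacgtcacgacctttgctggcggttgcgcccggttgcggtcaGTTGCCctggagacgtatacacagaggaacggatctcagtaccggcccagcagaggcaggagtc
Tekt1, chr10:57479122-57479271, strand minus: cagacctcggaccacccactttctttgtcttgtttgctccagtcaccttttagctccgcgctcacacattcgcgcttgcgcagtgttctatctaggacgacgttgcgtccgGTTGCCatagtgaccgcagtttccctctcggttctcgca

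The match began 64 bases before the start in Sntn and Spag6l, 57 in Cfap161, 55 in Dnai2 and 39 in Tekt1. Sntn, the apical structure protein sentan of motile cilia, differed by 0.42 between the doses with a standard error of 0.09, and Spag6l, a protein of the central apparatus, by 0.48 with a standard error of 0.08. Dnai2, Cfap161 and Tekt1 differed by 0.48, 0.33 and 0.54. Over the genes called by the 1.5-fold rule, GTTGCC was found in 15 of 88 promoters of higher genes and 5 of 15 of lower genes. The E-box CACGTG was in 7 of 88 and 1 of 15, against 8.77% of the tested genes with a promoter and 6.65% of all promoters. In the same order of shares, the AP-1 site TGACTCA was in 5 of 88 and 1 of 15, against 3.69% and 4.53%. The CRE TGACGTCA was in 1 of 88 and 0 of 15, against 2.85% and 1.91%. The D-box TTATGTAA was in 0 of each, against 0.557% and 0.881%.

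The largest differences were in single genes, and a minority of the calls held when any 1 rat was left out (10 of the 28 genes chosen by the naming rule). The genes with a symbol that passed the rule, were well above background on at least 3 arrays of both doses and had the same sign on both slides were 52 higher and 21 lower. The 12 largest rises by size were in Erp27, Mmp13, Aim2, Padi2, Jakmip2, Pi16, Tpd52l1, Ccdc77, Stpg1, Chial1, Retn and Clip4, from 2.35 to 0.87. Among the largest falls were Actn3, Eml1, Or51f1g, C14h5orf52, Rtp3, Vpreb1b, Lbhd2, Or6f1, Trarg1, Twist1 and Pxmp4, from -1.47 to -0.73. The call held with each of the 8 rats left out in turn for Erp27, Aim2, Jakmip2, Tpd52l1, Chial1, Eml1, Lbhd2, Trarg1 and Twist1. With normexp the differences of Retn, Clip4, Ccdc77 and Jakmip2 were 0.13, 0.34, 0.41 and 0.47, all short of the rule.

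Erp27, a chaperone of the endoplasmic reticulum, had log2 levels of -5.31, -4.39, -3.74 and -4.01 at 600 ppm against -4.27, -1.83, -0.80 and -1.13 at 1000 ppm. Rat 11 was at the level of the 600 ppm rats and the other 3 were well above them. The difference was 2.35 with a standard error of 0.55 (adjusted p of 0.36 in limma, exact permutation p of 0.0556). On other slides, rats 6 and 26 at 600 ppm had -3.97 and -1.65 against -1.56 and -1.13 in rats 13 and 33 at 1000 ppm. These rats kept the order, but rat 26 lay above rat 12 at 1000 ppm, and the control rats ranged from -4.42 to -0.67.

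Aim2, a sensor of DNA in the cytosol that starts inflammasome signalling, had log2 levels of -4.33, -4.35, -3.53 and -3.84 at 600 ppm against -2.86, -2.64, -3.14 and -2.71 at 1000 ppm, and the doses did not overlap across the slides. Its difference was 1.18 with a standard error of 0.20 (adjusted p of 0.291 in limma). On other slides the order was mixed, with -3.03 and -2.64 in rats 6 and 26 at 600 ppm against -4.04 and -2.45 in rats 13 and 33 at 1000 ppm. Over all 12 rats of both doses the rule was not met, at 0.65, and with normexp the difference was 0.72.

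Mmp13, a collagenase of the matrix metalloproteinase family, had log2 levels of -5.65, -5.34, -5.28 and -5.72 at 600 ppm against -3.43, -5.90, -2.83 and -3.69 at 1000 ppm. Rat 12 was the lowest of all 8 rats. The difference was 1.54 with a standard error of 0.58 (adjusted p of 0.679 in limma, exact permutation p of 0.167), and the call was lost without rat 7, 11, 27, 28, 31 or 32 and with normexp, at 0.69. Rats 13 and 33, also at 1000 ppm, had -5.63 and -5.90, the level of the 600 ppm rats.

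Of the 6 chitinase genes tested, 2 passed the rule, both higher, beside 0.954% of all genes tested. Chia, the acidic mammalian chitinase that is abundant in rodent lung, had log2 levels of 4.11, 3.71, 4.10 and 3.16 at 600 ppm against 4.88, 4.28, 4.16 and 4.90 at 1000 ppm, which did not overlap. Its difference was 0.78 with a standard error of 0.27 (adjusted p of 0.63 in limma), and the call was lost without rat 8, 11, 28 or 32. Chial1, a related gene, had -1.53, -1.93, -1.55 and -2.28 at 600 ppm against -0.64, -1.23, -1.20 and -0.41 at 1000 ppm, a difference of 0.95 with a standard error of 0.26 (adjusted p of 0.422). Rats on other slides did not follow this order for Chia, with 4.22 and 4.37 for 600 ppm against 4.16 and 4.25 for 1000 ppm, and the control rats were between 3.07 and 3.76. For Chial1 the order there was mixed, with -1.40 and -0.96 in rats 6 and 26 against -1.15 and -1.15 in rats 13 and 33. The other 4 chitinase genes tested had differences between -0.11 and 0.12.

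Among the genes that were lower at 1000 ppm, Eml1, a microtubule-associated protein, had log2 levels of 2.01, 1.29, 1.12 and 1.67 at 600 ppm against -0.12, -0.40, -0.15 and 1.13 at 1000 ppm. Rat 32 lay within the 600 ppm range and the other 3 were below it. The difference was -1.41 with a standard error of 0.36 (adjusted p of 0.395 in limma, exact permutation p of 0.111). On other slides Eml1 did not keep to this order, with 0.98 and -0.11 in rats 6 and 26 at 600 ppm against 0.90 and 1.22 in rats 13 and 33 at 1000 ppm. Actn3, the alpha-actinin of fast skeletal muscle, had -1.61, -3.06, -2.66 and -3.49 at 600 ppm against -2.86, -2.91, -5.29 and -5.65 at 1000 ppm. Its difference was -1.47 with a standard error of 0.48, with -0.55 on the male slide and -2.40 on the female slide, and the call was lost without rat 31 or 32. On other slides the order of Actn3 was reversed. Rats 6 and 26 at 600 ppm had -5.43 and -5.05, below -3.67 and -2.39 in rats 13 and 33 at 1000 ppm. The control rats ranged from -5.53 to -2.68.

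Twist1, a transcription factor of mesenchymal cells, had log2 levels of -4.86, -4.87, -4.25 and -4.38 at 600 ppm against -5.74, -5.05, -5.48 and -5.05 at 1000 ppm, without overlap, and a difference of -0.74 with a standard error of 0.18. Its order was mixed on other slides, with -4.58 and -5.96 in rats 6 and 26 at 600 ppm against -4.63 and -5.58 in rats 13 and 33 at 1000 ppm. Rtp3, a receptor transport protein that the study had listed as hyper-methylated after hexanal, had -1.42, -1.15, -1.40 and -1.78 at 600 ppm against -1.86, -2.83, -2.03 and -2.19 at 1000 ppm. The difference of Rtp3 was -0.79 with a standard error of 0.24 (adjusted p of 0.501 in limma), and the call was lost without rat 12. The study chose that list on rats of the same exposure, so it is not independent evidence of a direction. Rtp3 was the only 1 of its 43 tested genes that passed the rule, and the median of the list was -0.01.

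**Figure D5:**
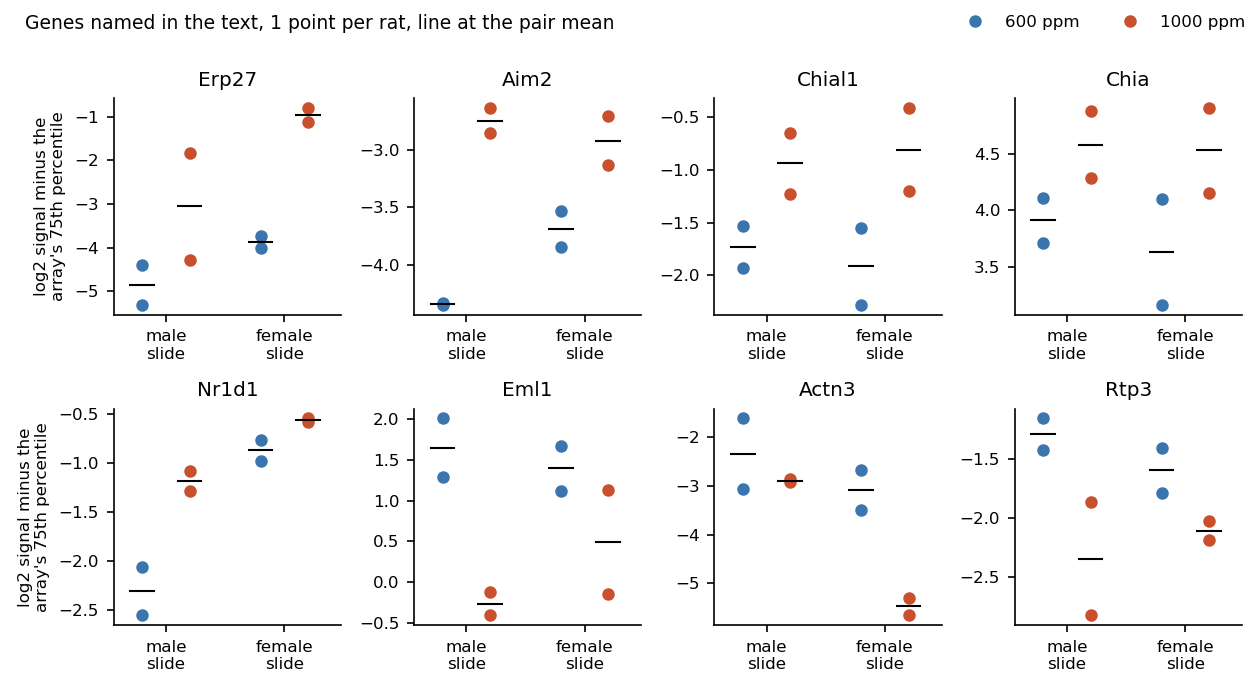
Log2 level (y axis, log2 signal minus the array's 75th percentile) of 8 genes named in the text in each rat of the male and the female slide (x axis), at 600 ppm (blue) and 1000 ppm (red), with a line at the mean of each pair. Within each slide the doses do not overlap for Erp27, Aim2, Chial1, Chia, Nr1d1 and Rtp3, and they do on at least 1 slide for Eml1 and Actn3.

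Clock and hormone-responsive genes gave 2 further calls. Nr1d1, the clock repressor Rev-erb alpha, had log2 levels of -2.06, -2.55, -0.98 and -0.76 at 600 ppm against -1.08, -1.29, -0.57 and -0.54 at 1000 ppm, with a difference of 1.12 in males and 0.31 in females. The call of Nr1d1 was lost without rat 8, and it was the only 1 of 14 clock genes tested with an unadjusted p under 0.05. Zbtb16, a transcription factor induced by glucocorticoids, had 1.04, 0.99, -0.51 and -0.77 at 600 ppm against 0.82, 0.98, -1.58 and -1.92 at 1000 ppm. Its difference was -0.11 in males and -1.11 in females, and the test of that difference between the slides had an unadjusted p of 0.00398 in limma, which did not pass adjustment over all genes. On other slides the order of Zbtb16 was mixed. Male rat 6 at 600 ppm had 0.83 against 0.39 in male rat 13 at 1000 ppm. Female rat 26 at 600 ppm had -1.76 against -0.39 in female rat 33 at 1000 ppm. The female control rats ranged from -2.80 to -0.61. Ddit4, also glucocorticoid-responsive, had a difference of -0.58 with a standard error of 0.24. Of the 12 glucocorticoid-responsive genes tested, 10 were lower, 2 of them with an unadjusted p under 0.05. The median was -0.13, with -0.01 on the male slide and -0.27 on the female slide, -0.07 without rat 11, -0.20 without rat 8 and -0.23 without rat 12.

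Immediate early genes, which cells switch on within minutes of a stimulus and which also respond to handling of tissue, were lower in 19 of 25. Klf4, Myc and Jun were lower with an unadjusted p under 0.05, by -0.44, -0.34 and -0.29 with standard errors of 0.07, 0.11 and 0.11, and the median was -0.17, with -0.02 on the male slide and -0.23 on the female slide. Without rat 32 the median was 0.01 and over all 12 rats of both doses it was 0.04, so its sign rested on rat 32. Of 11 heat shock genes tested, 10 were lower and Dnaja1, a co-chaperone, had an unadjusted p under 0.05 at -0.43 with a standard error of 0.15. The heat shock median was -0.12, with 0.03 on the male and -0.31 on the female slide, -0.04 without rat 28, -0.06 without rat 32 and -0.21 without rat 7. Interferon-stimulated genes were higher in 16 of 17 with a median of 0.32, but none had an unadjusted p under 0.05. Rat 11 had the highest mean level of that list among the 8 rats, and the median was 0.20 without it, 0.16 with normexp and 0.09 over all 12 rats of both doses.

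In the lists of genes that handle aldehydes and oxidants, some genes had an unadjusted p under 0.05 in limma. Over all genes tested the shares were 4.8% higher and 1.8% lower. The lists are short, so their counts are a description. Of 18 aldehyde metabolism genes tested, 1 had an unadjusted p under 0.05. It was Aldh3b1, an aldehyde dehydrogenase, at 0.34 with a standard error of 0.08, and the list median was 0.06. Several genes had wide errors or opposite signs on the slides. Adh7, an alcohol dehydrogenase, had a difference of 0.68 with a standard error of 1.02, at 1.59 in males and -0.22 in females. Akr1b10, an aldo-keto reductase, had 0.58 with a standard error of 0.76, at 1.90 in males and -0.74 in females, and the related Akr1b8 had -0.45 with a standard error of 0.33. Of 17 Nrf2 and antioxidant genes, only Gstm1, a glutathione transferase, did, at 0.30 with a standard error of 0.09, and the median was -0.02. Cytochrome P450 and monooxygenase genes gave 2 of 10, Cyp2s1 and Ephx1, at 0.28 and 0.24 with standard errors of 0.10 and 0.09. Cyp2e1, a P450 of small organic molecules, had a difference of -0.53 with a standard error of 0.25. None of these lists held a gene past 1.5-fold with an unadjusted p under 0.05, a rule met by 0.954% of all genes as higher and 0.21% as lower.

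Across all 37 lists, 482 different genes were tested, and 4 were called higher (0.83%) and 3 lower (0.622%), beside 0.954% and 0.21% of all genes tested. Pvalb, a calcium-binding protein of fast muscle, was among the 4 at 0.83 with a standard error of 0.32, in the skeletal muscle list that also held Actn3, and without rat 11 its difference was 0.53. Of the list genes, 5.6% were higher and 2.49% lower with an unadjusted p under 0.05 in limma, beside 4.8% and 1.8% of all genes tested. In 18 of the 37 lists, which are short, no gene had an unadjusted p under 0.05, and no lack of change is read from such lists. These included macrophage, neutrophil, B and plasma cell, MHC class II, TNF and NF-kB, endoplasmic reticulum stress, cholesterol and fatty acid synthesis, oxidative phosphorylation and ribosomal protein genes.

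For some dim genes the arrays gave only a bound. In 9 called genes with a symbol the probe was not well above background on any 600 ppm array and was on all 4 arrays at 1000 ppm, and there was none in the other direction. These genes passed the filter only through the dose at which they were high, and 1376 tested genes were detected at 1000 ppm only against 20 at 600 ppm only, so nothing is read from that count or its direction. The bright mean was set against the higher of the dim probe's own level and the lowest level well above background on the same array. That bound was 1.54-fold for Or5p53, an olfactory receptor, and 1.52-fold for Phkg1, a subunit of muscle phosphorylase kinase. It was 1.43-fold for Or6c69, another olfactory receptor. The adjusted p of these genes in limma was 0.606, 0.695 and 0.693. At the low end were Sh2d4b at 1.09-fold and Cxcl11, an interferon-induced chemokine, at 1.07-fold. For Trpv3 the bound was under 1 and no fold is given. The bounds describe the means on these arrays under this processing. The genes were chosen as called and as well above background at 1000 ppm only. No smallest fold for the dose is therefore read from these values.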

How the data were processed

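Lung RNA of 24 rats was measured on 1-colour Agilent rat arrays, and the 8 arrays of the 2 slides that held both 600 and 1000 ppm are compared here. The deposited intensities are processed signals of Agilent Feature Extraction 11.5.1.1, which removes background and spatial trends array by array without bringing the arrays to a common scale. The series table, equal to these intensities within 0.001 on the log2 scale for at least 97.3% of probes per array, served as an alternative. How the authors normalized the mRNA values is not given in the sources used here.

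Groups were taken from the titles of the samples, and slides and positions from the scanner files. Control and outlier spots were dropped, replicate spots averaged per probe, and the 75th percentile of each array was subtracted on the log2 scale. No spot was saturated, and all arrays were scanned on 1 day. Of 30367 probes, 18355 (60.4%) matched a gene symbol of the assembly GRCr8 by accession. Probes well above background on at least 3 of 4 arrays of either dose were kept, and the brightest probe by mean stood for its gene. In 61 genes 1 of 8 values was missing, and these were fitted on the other arrays. R 4.3.3 and limma 3.58.1 were used, with the slide as a block (lmFit and eBayes), and the interaction of slide and dose tested the difference between slides. The scripts were tested on simulated data. Precision is limited by the 4 rats per dose.

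The genes named are the 12 largest rises and the 12 largest falls that passed the fold and p rule with a known symbol, detection on at least 3 arrays per dose and 1 sign on both slides, every called member of 37 gene lists, and the 3 highest and 3 lowest bounds; of 28 genes so chosen, 1 is left unreported. For lists, further genes are named by size or by their p. The members and lists were chosen with earlier results of these data known. Cilium families, the GTTGCC motif and array position as a covariate were added after the data were seen.

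Alternatives were quantile normalization, scaling to the array median, normexp background correction (offset 50, on the median signals, since no mean signal was used), no filter, a filter on all 8 arrays, each probe on its own, no block, all 24 arrays, all 12 rats of both doses, the methods' t-test, each slide alone, the deposited table without scaling, and leaving out each rat.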

Additional observations from a re-analysis of the deposited data

Results flagged for a closer look

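In 5 of the 56 groups of 4 rats checked, over the genes chosen for naming, 1 rat stood far from the other 3, where chance alone flags about 1 group in 20. The number given is the gap to the nearest rat over the range of the group. Pi16 was highest in rat 8 of the 600 ppm group (0.929), at a log2 level of 1.97 against 0.52 to 0.63 in the others. Ccdc77 was highest in rat 7 at 600 ppm (0.848), at -2.80 against -4.56 to -4.29. Pxmp4 was lowest in rat 7 at 600 ppm (0.833), at -0.83 against -0.38 to -0.29. Lbhd2 was highest in rat 31 at 1000 ppm (0.937), at -2.62 against -3.13 to -3.10. Vpreb1b was lowest in rat 32 at 1000 ppm (0.859), at -5.23 against -5.04 to -5.01. Rat 7 also had the lowest share of probes well above background, 70.7%. No gene passed the adjusted test of a difference between the slides.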

How the results depend on the processing

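The count of higher genes, 204, was 135 with quantile normalization, 12 with normexp, 67 with the filter on all 8 arrays, 75 in the methods' t-test, 318 on the female slide alone, 551 with array position as a covariate and 1027 with no threshold on the fold change. The count of lower genes, 45, was 2106 without a filter, 18 over all 12 rats, 25 in the methods' t-test, 82 on the male and 126 on the female slide alone, 130 with array position and 385 with no fold threshold. Of the 2106, 2064 were among 6067 probes that had not passed the filter, whose median difference was -0.46. Of the higher and lower calls, 81.9% were higher as reported, 69.2% with quantile normalization, 65% with the filter on all 8 arrays, 15.4% with normexp and 11.3% without a filter.

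Leaving out 1 rat gave 142 to 295 higher and 50 to 73 lower genes (71 without rat 7 and 73 without rat 12), and 0 or 1 gene with an adjusted p under 0.05. The 1 was an unnamed probe, at -5.00 without rat 8. The adjusted count of differences between the slides was 0 as reported, 1 without a filter, and 0 to 2 with 1 rat left out (1 without rat 11, 2 without rat 12). Of 28 genes chosen for naming, 10 stayed past the rule in each leave-one-out fit, and no gene changed sign in any of 611 refits, of which 191 lost the call. The genes were chosen by their call on these same arrays, and most also by 1 sign on both slides. The lack of sign changes therefore follows largely from that choice and is no added support. No paired analysis was possible because the replicate numbers are those of the rats, which no 2 groups share. With 4 rats per dose at fixed positions, these arrays cannot separate dose from position. For genes near background, signal limits the values.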
